A study of Homo sapiens with 14 samples.

Results

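Interferon-stimulated genes are the genes that cells switch on when interferon, a secreted antiviral signal, binds its receptor. The 9 described here are ISG15, IFI6, IFIT1, IFIT2, IFIT3, MX1, OAS1, IRF9 and TRIM22. They were chosen by symbol, and all 9 were found in both deposited tables, among 22919 symbols present in both and 30791 present in either. RNA was sequenced from U2OS, an established human osteosarcoma cell line, after treatment with 1 of 9 small molecules or with the solvent. The solvent group was DMSO at 0.5% by volume, for which the labels give no time. 2-PCPA (tranylcypromine, an inhibitor of the histone H3K4 demethylase KDM1A and of monoamine oxidases) was given at 1 mM for 12 h, GSK343 (an EZH2 inhibitor) at 10 μM for 24 h and rapamycin (an mTOR inhibitor) at 5 μM for 24 h. These 4 groups had 2 replicates each, 1 in each table. The other 6 compounds had 1 library each, in the replicate 1 table. They were SAHA at 1 μM and VPA at 20 μM for 24 h, which inhibit histone deacetylases, GSK-J4 (a KDM6 demethylase inhibitor) at 20 μM for 12 h, BIX-01294 at 5 μM for 12 h and BRD4770 at 20 μM for 24 h (both directed at the EHMT histone methyltransferases), and UNC1215 (a ligand of the methyl-lysine reader L3MBTL3) at 50 μM for 24 h. The study's title asks about H3K4 demethylation and autophagy, and the labels name no interferon treatment.

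Type I interferon acts through the kinases JAK1 and TYK2, which activate STAT transcription factors; STAT2 is part of the complex ISGF3, which also holds IRF9. ISGF3 binds the interferon-stimulated response element (ISRE), a short DNA element in the promoters of most of these genes. The products act at different steps: ISG15 is a ubiquitin-like modifier, the IFIT proteins bind viral or foreign RNA, MX1 is a GTPase that blocks viral nucleocapsids, and OAS1 makes the second messenger that activates RNase L. IFI6 is a small membrane protein of mitochondria and the endoplasmic reticulum, and TRIM22 is a ubiquitin ligase with antiviral activity.

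The promoters are shown because the members were chosen as targets of one pathway and the ISRE is the element that defines it. Each line gives the 250 bases before the start site on the gene's strand, 5′ to 3′, from the RefSeq promoter table of build GRCh38.p14, with matches to the ISRE core GAAANNGAAA, or to its reverse complement TTTCNNTTTC, in capitals. ISG15 lies at chr1:1013247-1013496 on the plus strand, IFI6 at chr1:27672193-27672442 on the minus strand, IFIT1 at chr10:89392373-89392622 on the plus strand and the first of the IFIT3 windows at chr10:89327747-89327996 on the plus strand.

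ISG15: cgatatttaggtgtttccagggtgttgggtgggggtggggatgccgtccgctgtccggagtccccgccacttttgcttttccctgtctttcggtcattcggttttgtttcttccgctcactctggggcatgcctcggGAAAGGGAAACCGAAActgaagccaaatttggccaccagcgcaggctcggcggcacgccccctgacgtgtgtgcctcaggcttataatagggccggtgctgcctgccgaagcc
IFI6: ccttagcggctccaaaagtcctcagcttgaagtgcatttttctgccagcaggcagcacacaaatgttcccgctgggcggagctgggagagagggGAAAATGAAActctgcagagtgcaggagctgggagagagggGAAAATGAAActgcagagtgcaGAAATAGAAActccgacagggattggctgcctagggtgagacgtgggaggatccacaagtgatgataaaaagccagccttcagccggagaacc
IFIT1: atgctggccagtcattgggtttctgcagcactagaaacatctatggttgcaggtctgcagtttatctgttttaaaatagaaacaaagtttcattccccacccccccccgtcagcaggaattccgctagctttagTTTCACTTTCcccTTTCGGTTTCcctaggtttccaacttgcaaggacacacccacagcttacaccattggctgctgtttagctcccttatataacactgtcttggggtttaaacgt
IFIT3: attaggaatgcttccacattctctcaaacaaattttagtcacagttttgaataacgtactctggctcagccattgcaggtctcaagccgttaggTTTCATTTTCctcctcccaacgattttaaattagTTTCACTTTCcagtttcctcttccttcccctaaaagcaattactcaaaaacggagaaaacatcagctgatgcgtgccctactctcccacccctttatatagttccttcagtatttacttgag

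Counting from the start site, the matches begin at -113 and -107 in ISG15, where they overlap, at -156, -115 and -93 in IFI6, at -116 and -103 in IFIT1, and at -156 and -122 in IFIT3. The table held windows for 7 of the 9 members, 10 windows in all, each of 300 bases reaching 50 bases past the start. The ISRE core was found in 7 of these 10 windows and in 5 of the 7 members (ISG15, IFI6, IFIT1, IFIT3 and MX1). Among all 35116 promoter windows of the table it was found in 3.57%, and in 4.38% of 27305 genes. OAS1 and IRF9 had no match to the ISRE core at the spacing searched. The OAS1 window does hold GAAACGAAA, a repeat with a shorter gap that the search did not count. Both had the GAS core TTCNNNGAA, the letters of the STAT dimer element, which 7.66% of all windows held. It was also found in 1 window of MX1. A match is a description of letters and not evidence of a bound factor. IFIT2, IFIT3 and IFIT1 lie in 1 cluster on chromosome 10, with IFIT1B between the last 2, while the other 6 members lie elsewhere, with ISG15 and IFI6 both on chromosome 1.

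Levels are in FPKM, a unit that divides by transcript length and by library size, so levels of different genes can be compared per length. The tables were made separately and listed different rows, so every difference was taken against the DMSO library of the same table. Relative depth, read from ratios of low FPKM values, ran from 0.557 (BIX-01294) to 1.25 (SAHA) times that of DMSO in the replicate 1 table and from 0.676 to 1.00 in the replicate 2 table. Between 12045 and 13157 genes reached 1 FPKM in a library. The replicate 1 library of 2-PCPA stood apart, with the median gene 0.43 lower than in DMSO on the log2(FPKM + 1) scale, against 0.01 for its replicate 2. The mesenchymal marker VIM was at 738.7 FPKM in DMSO replicate 1 and the bone collagen gene COL1A1 at 141.9 FPKM, but the osteoblast factor SP7 and the mesenchymal factor TWIST1 were at 0 in every library. Among 8 epithelial markers, the keratin genes KRT8 and KRT18 were at 523.2 and 261.5 FPKM in DMSO replicate 1. EPCAM and CLDN4 were both at 1.62 FPKM there, and CDH1, KRT5, KRT19 and ESRP1 were under 1 FPKM. Of 12 leukocyte markers, 8 stayed under 1 FPKM in every library and 3 were at 0 throughout. In bulk RNA, fewer cells expressing a gene and less RNA per cell cannot be told apart.

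Without added interferon, the 9 genes fell into 3 levels in these cells. ISG15, IFI6 and TRIM22 were clearly expressed, with 18.7, 18.6 and 13.1 FPKM in DMSO replicate 1 and 28.3, 29.7 and 8.22 FPKM in replicate 2. IFIT1 and IFIT3 were near 1 to 3 FPKM, with 2.65 and 1.27 FPKM in DMSO replicate 1 and 1.01 and 1.42 FPKM in replicate 2. IFIT2, MX1 and OAS1 stayed under 1 FPKM in all 14 libraries. IRF9 was split by table, as given further on. Neither DMSO pair separates ISG15 from IFI6, which differed by less than the replicates of either gene.

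**Figure D1:**
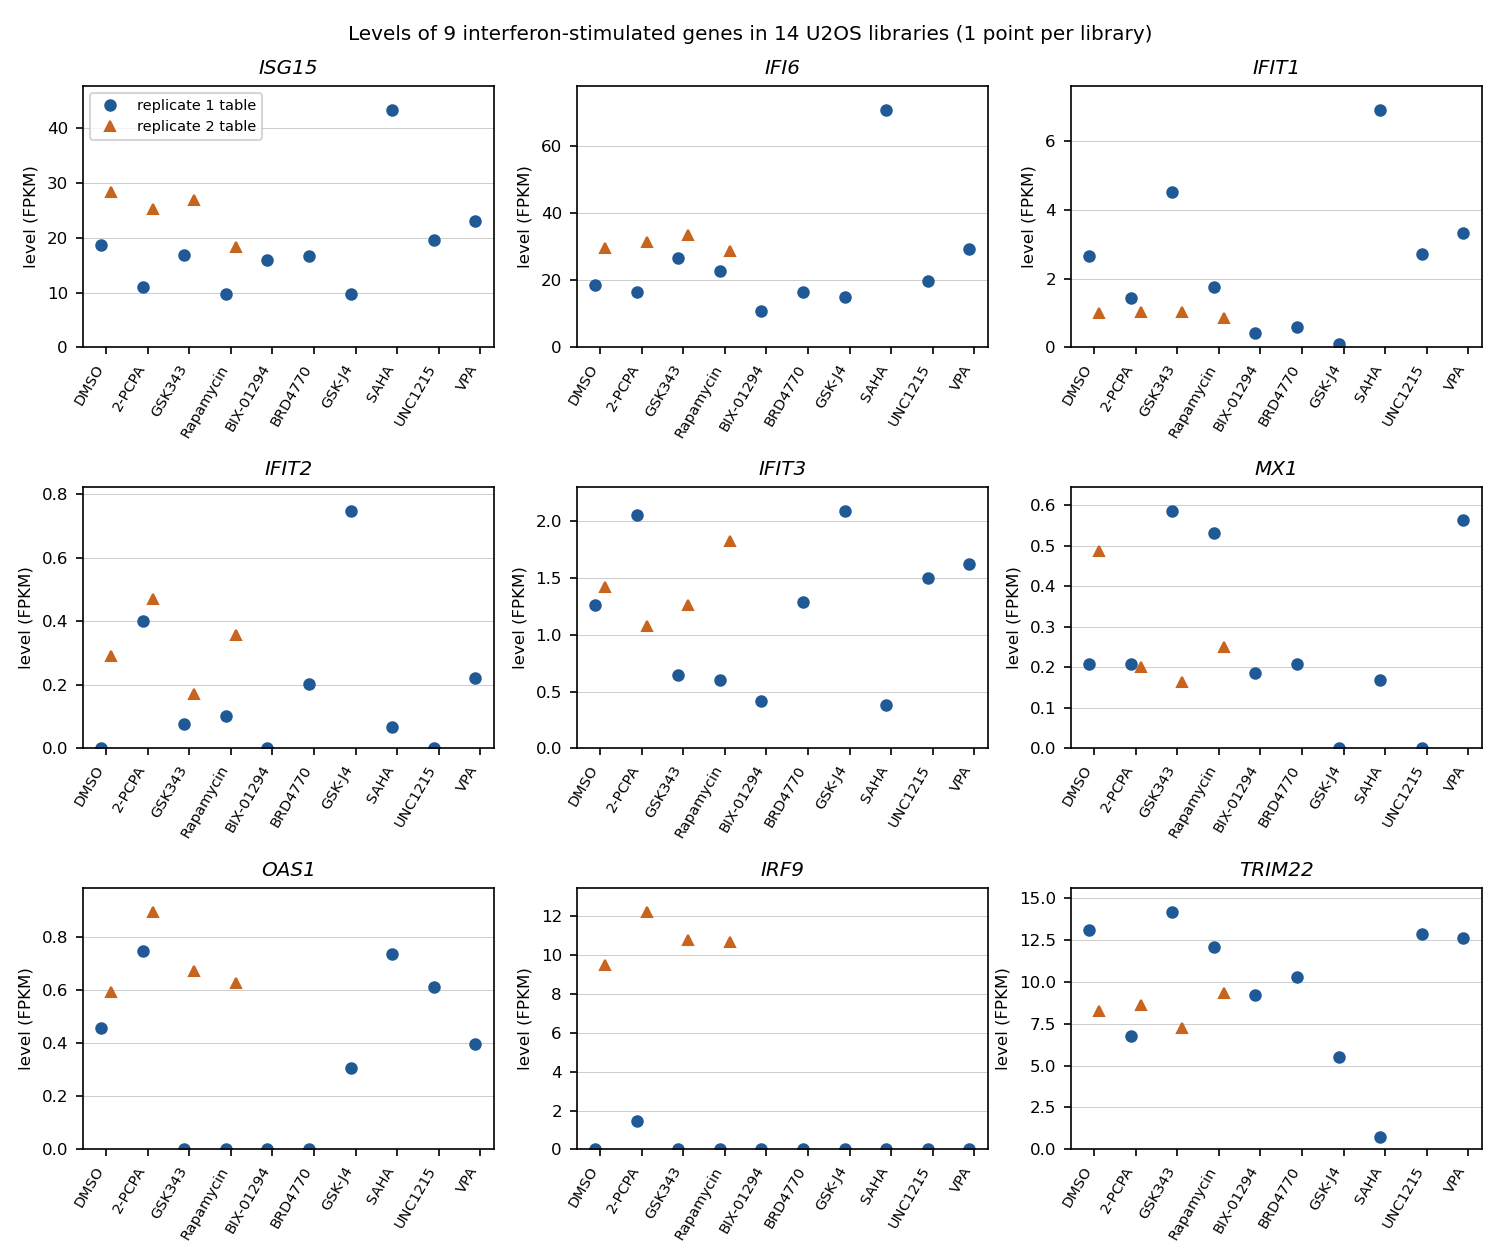
Levels of the 9 genes in FPKM (vertical axes, linear, each from 0) by treatment, with 1 point per library; circles are the replicate 1 table and triangles the replicate 2 table. The SAHA library is the highest for ISG15 (43.4), IFI6 (70.8) and IFIT1 (6.92) and the lowest for TRIM22 (0.729).

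On the log2(FPKM + 1) scale the SAHA library held both the highest and the lowest difference of a kept member. ISG15, IFI6 and IFIT1 were 2.32, 3.80 and 2.61 times their DMSO levels in FPKM, while TRIM22 was 17.9 times lower than in DMSO. With a threshold of 1 on the log2(FPKM + 1) scale, 3 of the 5 members whose mean reached 1 FPKM in the replicate 1 table were higher and 1 was lower. Over all 12804 genes kept there, 7.79% were higher and 3.83% lower by that much. The median of the 5 members was 1.12, against 0.05 for all genes. All 6 single libraries are set against the same DMSO library. With 1 library there is no test, and counting error and culture differences cannot be separated from an effect of the compound.

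ISG15 encodes the modifier that is attached to other proteins during an interferon response. In the replicate 1 table it was at 18.7 FPKM in DMSO, 11.1 in 2-PCPA, 16.9 in GSK343, 9.81 in rapamycin, 16.0 in BIX-01294, 16.7 in BRD4770, 9.73 in GSK-J4, 43.4 in SAHA, 19.7 in UNC1215 and 23.1 in VPA. In the replicate 2 table it was at 28.3 in DMSO, 25.3 in 2-PCPA, 26.9 in GSK343 and 18.3 in rapamycin. SAHA was the highest and GSK-J4 and rapamycin the lowest of the replicate 1 libraries, and rapamycin was also the lowest in replicate 2. The SAHA difference was 1.17 on the log2(FPKM + 1) scale. That is 3.75 times the SD of a difference between 2 single libraries, taken from the fit of the replicated groups. The fit draws each gene's SD toward that of genes at similar levels, so it is not the spread of this gene alone. The SAHA difference ranked as number 729 from the highest of 12804 genes. Under scaling to a constant library sum the difference was 0.98, just under the threshold. The GSK-J4 difference was -0.88, or 2.80 of those SDs.

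IFI6 had the largest positive difference of the set. Its replicate 1 levels were 18.6 FPKM in DMSO, 16.4 in 2-PCPA, 26.8 in GSK343, 22.8 in rapamycin, 10.8 in BIX-01294, 16.4 in BRD4770, 15.2 in GSK-J4, 70.8 in SAHA, 19.8 in UNC1215 and 29.3 in VPA. Its replicate 2 levels were 29.7 in DMSO, 31.4 in 2-PCPA, 33.4 in GSK343 and 28.8 in rapamycin, a range of 1.16-fold from lowest to highest. SAHA stood above every other library of both tables, and VPA, the other deacetylase inhibitor, came next in the replicate 1 table. The difference from DMSO was 1.87 in SAHA (5.69 SDs, number 213 from the highest of 12804) and 0.63 in VPA (1.91 SDs) on the log2(FPKM + 1) scale. The doses were 1 μM for SAHA and 20 μM for VPA, so the values are side by side and not a comparison at matched dose. BIX-01294 gave the lowest level, -0.73 from DMSO or 2.21 SDs.

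**Figure D2:**
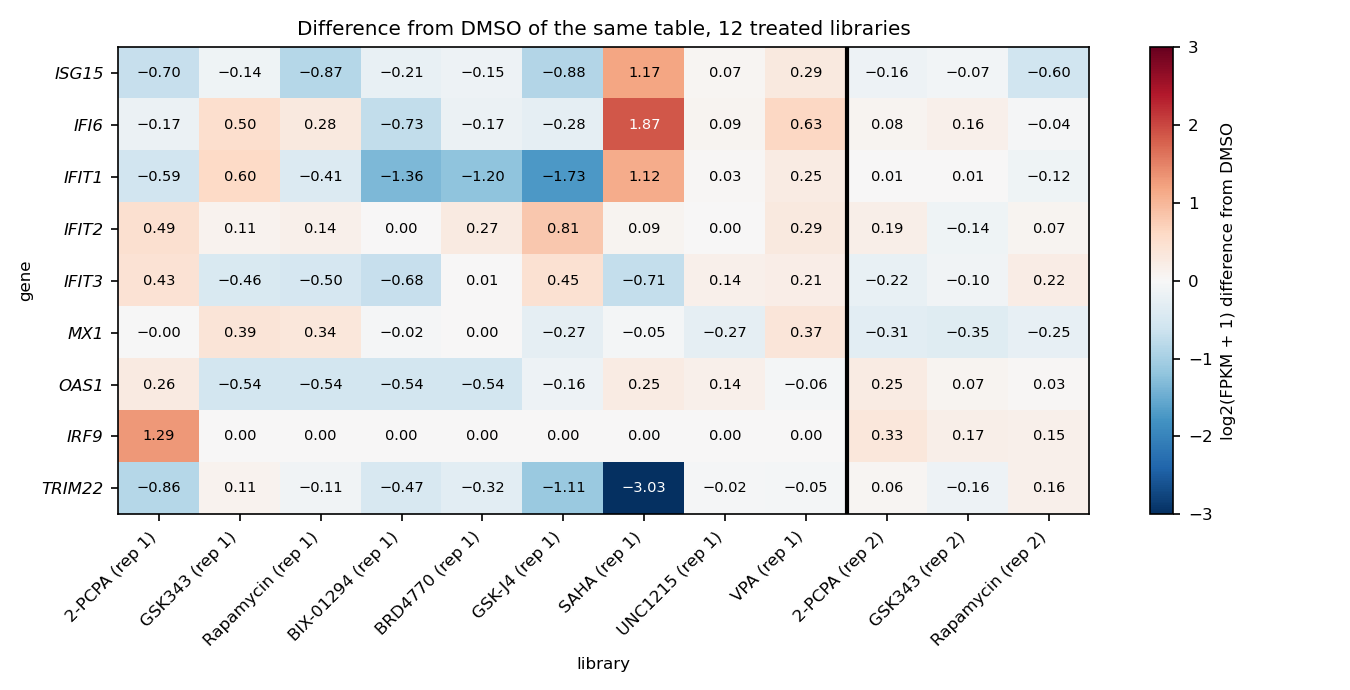
Difference from the DMSO library of the same table on the log2(FPKM + 1) scale (color, from -3 to 3, printed in each cell) for the 9 genes (rows) in 12 treated libraries (columns; the line separates the tables). The SAHA column holds the highest value, 1.87 for IFI6, and the lowest, -3.03 for TRIM22.

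The IFIT genes encode related RNA-binding proteins and lie close together, yet IFIT1 did not follow IFIT3. IFIT1, which binds RNA with a foreign cap structure, was at 2.65 FPKM in DMSO, 1.43 in 2-PCPA, 4.52 in GSK343, 1.75 in rapamycin, 0.426 in BIX-01294, 0.594 in BRD4770, 0.0985 in GSK-J4, 6.92 in SAHA, 2.73 in UNC1215 and 3.33 in VPA. In replicate 2 it was at 1.01, 1.02, 1.02 and 0.848 FPKM in DMSO, 2-PCPA, GSK343 and rapamycin. SAHA was the highest replicate 1 library, and the libraries of GSK-J4, BIX-01294 and BRD4770 were the lowest, under every other library of either table. The log2(FPKM + 1) differences were 1.12 in SAHA (2.40 SDs), -1.73 in GSK-J4 (3.73 SDs), -1.36 in BIX-01294 (2.92 SDs) and -1.20 in BRD4770 (2.58 SDs). In FPKM, DMSO was 26.9 times GSK-J4, 6.22 times BIX-01294 and 4.47 times BRD4770. All 4 of these differences are within 1 on the log2(FPKM + 5) scale, where that of SAHA was 0.64, because the gene is low.

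IFIT3, a partner that stabilizes IFIT1, showed other extremes. It was at 1.27 FPKM in DMSO, 2.05 in 2-PCPA, 0.645 in GSK343, 0.599 in rapamycin, 0.414 in BIX-01294, 1.29 in BRD4770, 2.09 in GSK-J4, 0.386 in SAHA, 1.50 in UNC1215 and 1.62 in VPA. In replicate 2 it was at 1.42 in DMSO, 1.08 in 2-PCPA, 1.27 in GSK343 and 1.83 in rapamycin. SAHA, the highest library for IFIT1, was the lowest for IFIT3, and GSK-J4, the lowest for IFIT1, was the highest for IFIT3. Both IFIT3 extremes were near ties, with BIX-01294 at 0.414 and 2-PCPA at 2.05 FPKM. BIX-01294 was low for both genes, with IFIT1 at 0.426 FPKM. The SAHA difference was -0.71 and the GSK-J4 difference 0.45 on the log2(FPKM + 1) scale, 1.37 and 0.867 SDs. IFIT2, the third neighbour, was at 0 in DMSO, BIX-01294 and UNC1215 of replicate 1, and between 0.0662 (SAHA) and 0.748 FPKM (GSK-J4) in the other replicate 1 libraries. GSK-J4, 2-PCPA and VPA were its highest replicate 1 libraries, in the same order as for IFIT3. Its replicate 2 levels were 0.292 in DMSO, 0.469 in 2-PCPA, 0.173 in GSK343 and 0.358 in rapamycin. After scaling for relative depth, the nonzero IFIT2 values of replicate 1 were 1 to 6 times a common step, within 0.1 of whole multiples, so the gene rests on very few reads.

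LIPA, a lysosomal lipase gene whose annotated span in RefSeq overlaps the IFIT genes, was looked at after the IFIT values had been seen. It was at 6.92 FPKM in DMSO, 3.38 in GSK-J4 and 26.8 in SAHA, its lowest and highest replicate 1 libraries being the same as those of IFIT1. Over the 10 replicate 1 libraries LIPA had a Pearson correlation of 0.82 with IFIT1 (0.72 without SAHA), -0.63 with IFIT3 and -0.62 with IFIT2. The strand of the reads is not given in the sources used here, and whether reads of overlapping genes entered the IFIT values was not tested.

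MX1 and OAS1, classic antiviral effectors, were too low to follow. MX1 lay between 0 (GSK-J4 and UNC1215) and 0.586 FPKM (GSK343) with a median of 0.207 in the 10 replicate 1 libraries, and between 0.164 and 0.486 FPKM in replicate 2. OAS1 was at 0 in 4 replicate 1 libraries, reached 0.748 FPKM in 2-PCPA and 0.737 in SAHA, and lay between 0.592 and 0.895 FPKM in replicate 2. SAHA, which was high for ISG15, IFI6 and IFIT1, had MX1 at 0.168 FPKM against 0.208 in DMSO. No difference is read from levels this low.

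TRIM22 had the opposite pattern to ISG15 and IFI6 in SAHA. It was at 13.1 FPKM in DMSO, 6.75 in 2-PCPA, 14.2 in GSK343, 12.1 in rapamycin, 9.18 in BIX-01294, 10.3 in BRD4770, 5.53 in GSK-J4, 0.729 in SAHA, 12.9 in UNC1215 and 12.6 in VPA. In replicate 2 it was at 8.22 in DMSO, 8.60 in 2-PCPA, 7.24 in GSK343 and 9.31 in rapamycin. SAHA was below all other libraries, the next lowest being GSK-J4 at 5.53 FPKM. The SAHA difference was -3.03 on the log2(FPKM + 1) scale, or 7.50 SDs, and ranked as number 31 from the lowest of 12804 genes. In VPA the difference was -0.05. In GSK-J4 it was -1.11, or 2.75 SDs, with DMSO at 2.37 times GSK-J4 in FPKM.

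IRF9, the DNA-binding part of ISGF3, was listed at 0 in 9 of the 10 replicate 1 libraries and at 1.45 FPKM in 2-PCPA. In replicate 2 it was at 9.51 FPKM in DMSO, 12.2 in 2-PCPA, 10.8 in GSK343 and 10.7 in rapamycin. The tables thus disagree for IRF9 in the same treatments. Among 8447 rows with at least 5 FPKM in all 4 replicate 2 libraries, 171 (2.02%) were likewise at 0 in at least 9 of the 10 replicate 1 libraries, and in 4 of these 2-PCPA was the only library above 0. A listed 0 may be a failed estimate, so no level of IRF9 is taken from the replicate 1 table, and its differences over both tables, given further on, carry this limit.

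In the single libraries besides SAHA, 0 to 2 of the 5 kept members passed 1 log2, too few to sort the compounds into groups. GSK-J4 had 0 members higher and 2 lower by 1 log2 (IFIT1 and TRIM22; 8.92% of all genes were higher and 5.96% lower), with a median of -0.88 against 0.00 for all genes. BIX-01294 had 0 higher and 1 lower (IFIT1; 9.97% and 6.04%), with a median of -0.68 against 0.06. BRD4770 had 0 higher and 1 lower (IFIT1; 5.94% and 4.84%), with a median of -0.17 against -0.01. Its other members lay between -0.32 (TRIM22) and 0.01 (IFIT3). With the larger pseudocount of 5 the counts of GSK-J4, BIX-01294 and BRD4770 were all 0. VPA had 0 in either direction (2.81% and 1.59% of genes) and a median of 0.25 against 0.01, with IFI6 the furthest at 0.63 (1.91 SDs). UNC1215 had 0 as well (1.8% and 1.26%), and its 5 members all lay within 0.276 SDs of DMSO. BIX-01294, GSK-J4 and UNC1215 were the shallowest replicate 1 libraries, at relative depths of 0.557, 0.656 and 0.686. The part of depth in these values was not tested.

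**Figure D3:**
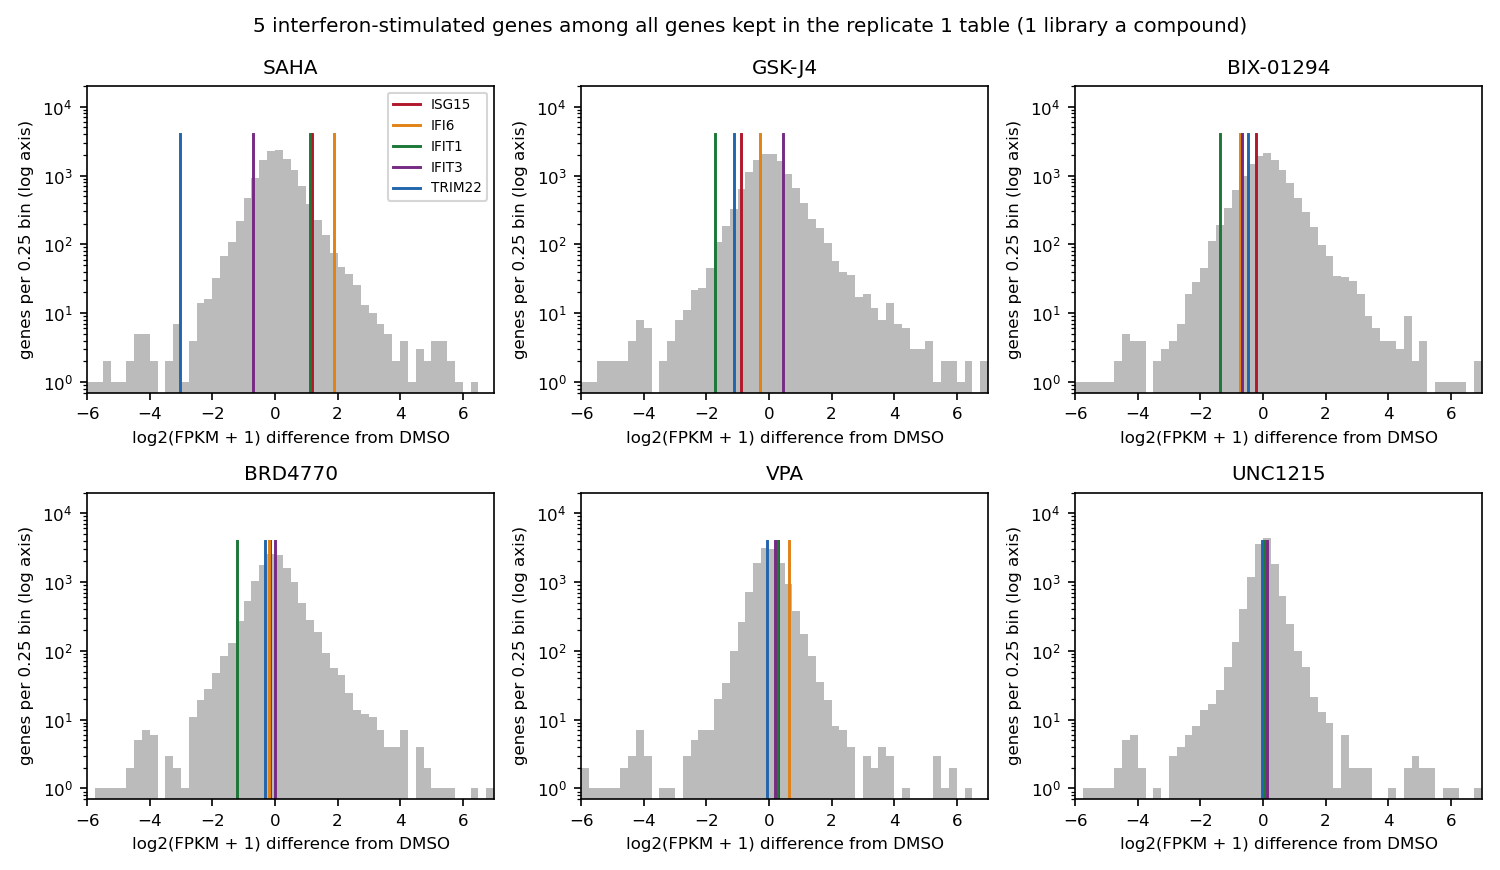
Histograms of the log2(FPKM + 1) difference from DMSO of all kept genes in each compound with 1 library (bins of 0.25; number of genes on a log axis; values from -6 to 7 are drawn), with colored lines at the 5 kept members. In SAHA the lines are split, from -3.03 (TRIM22) to 1.87 (IFI6); in UNC1215 they lie within 0.15 of 0.

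The compounds with 2 replicates were tested with limma on log2(FPKM + 1). The question was whether 2-PCPA, GSK343 or rapamycin moved any member from DMSO, and no member passed. Of the 9 members, 6 reached a mean of 1 FPKM and were tested (all but IFIT2, MX1 and OAS1), and 0 of 6 had a Benjamini-Hochberg adjusted p under 0.05 in any of the 3 comparisons. Over all 12603 genes the same test called 0.0238% with 2-PCPA, 0.0159% with GSK343 and 0.0159% with rapamycin, so few genes of any kind passed. At an unadjusted p under 0.05, 1 of 6 members passed with 2-PCPA (7.48% of all genes), 0 with GSK343 (4.22%) and 1 with rapamycin (6.46%). Whether the 2 replicates came from different cultures is not stated, and a p-value here reflects the scatter of these libraries alone, which may be technical.

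With rapamycin, ISG15 was lower in both replicates, by -0.87 and -0.60 on the log2(FPKM + 1) scale. The mean difference was -0.73 ± 0.22 (SE, n = 2 replicates), with a 95% interval of -1.24 to -0.23. Its p in limma was 0.00978 before adjustment and 0.663 after it, and the adjusted p lay between 0.147 and 1 over the alternatives. In FPKM, rapamycin was at 9.81 against 18.7 in DMSO of replicate 1, and at 18.3 against 28.3 in replicate 2. The other members had differences of 0.12 (IFI6, interval -0.41 to 0.65), -0.27 (IFIT1, -1.02 to 0.48), -0.14 (IFIT3, -0.98 to 0.70), 0.07 (IRF9, -0.64 to 0.79) and 0.03 (TRIM22, -0.63 to 0.68, turning to -0.049 when libraries were scaled to a constant sum). Against GSK343, which was also given for 24 h, ISG15 was higher in GSK343 by 0.63 (0.12 to 1.13; limma adjusted p = 0.831).

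With 2-PCPA, the members' median was -0.17, against -0.20 for all tested genes, a shift that came from replicate 1. ISG15 differed by -0.43 ± 0.22 (-0.93 to 0.07), TRIM22 by -0.40 ± 0.29 (-1.05 to 0.25) and IFIT1 by -0.29 ± 0.33 (-1.04 to 0.46). Under median centring, quantile normalization and scaling to a constant library sum these were smaller: -0.23, -0.19 and -0.091 for ISG15, -0.20, -0.20 and -0.081 for TRIM22, and -0.088, -0.16 and -0.073 for IFIT1. The TRIM22 difference was -0.86 in replicate 1 and 0.06 in replicate 2. IFI6 differed by -0.05, a sign that turned under other scalings (0.15 to 0.31), and IFIT3 by 0.10 (0.30, 0.11 and 0.44 under these scalings). IRF9 had the largest difference, 0.81 ± 0.31 (interval 0.10 to 1.53). Its adjusted p in limma was 0.592 (unadjusted 0.0304). Under the same scalings it was 1.01, 0.78 and 1.50. It rested on the replicate 1 table, where DMSO is listed at 0: without 2-PCPA replicate 1 it was 0.28, and in the replicate 2 table alone 0.33.

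With GSK343, all 6 tested members lay between -0.28 (IFIT3) and 0.33 (IFI6). IFI6 was higher in both replicates, by 0.50 and 0.16, with a 95% interval of -0.20 to 0.86 for the mean. IFIT1 was 0.60 higher in replicate 1 and 0.01 in replicate 2. The members' median was 0.03, the same as that of all genes. Between the compounds, 0 of 6 members passed for 2-PCPA against rapamycin (0.0476% of all genes called), GSK343 against rapamycin (0.0793%) or 2-PCPA against GSK343 (0.0317%), and 1 member each had an unadjusted p under 0.05 (11.8%, 5.6% and 11.6% of all genes). These were IRF9, ISG15 and IRF9. Leaving out 2-PCPA replicate 2 made IRF9 pass for 2-PCPA against GSK343, a difference that then came from the replicate 1 table, where GSK343 is listed at 0; in that setting 1844 of all 12603 genes passed. The 2-PCPA libraries were taken at 12 h and the others at 24 h.

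**Figure D4:**
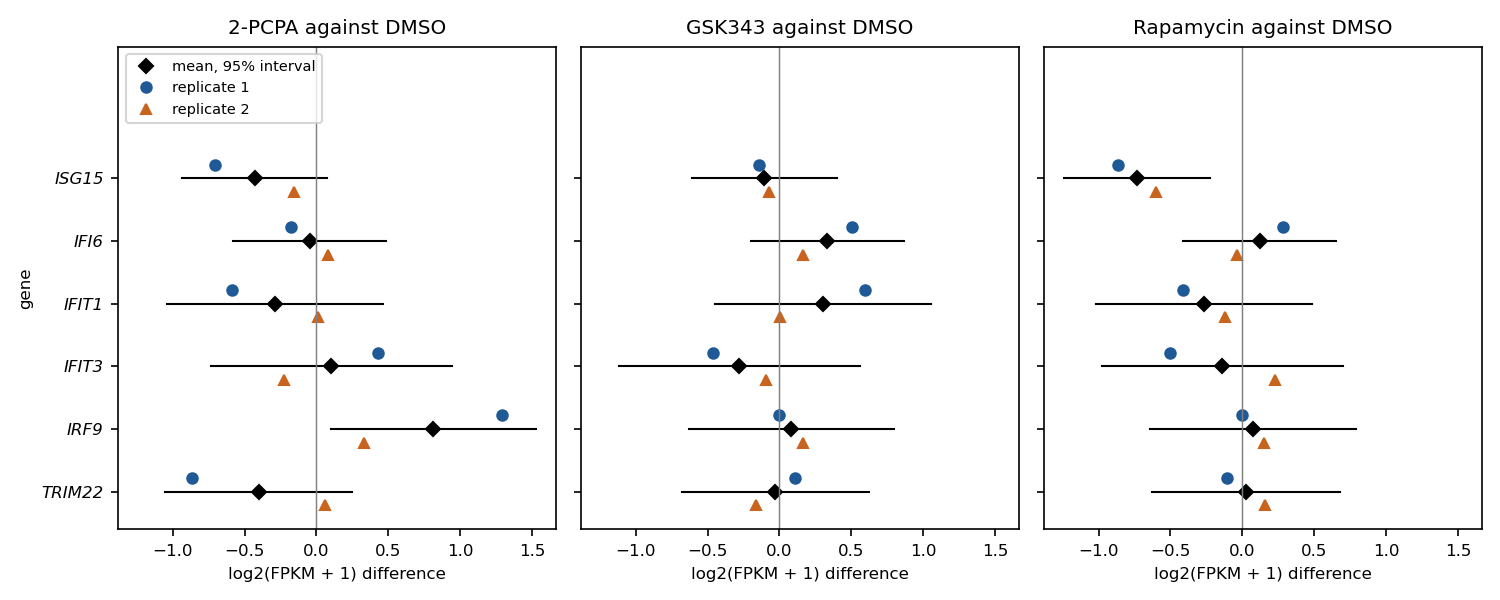
Difference from DMSO on the log2(FPKM + 1) scale (horizontal axis) of the 6 tested members for the 3 compounds with 2 replicates; diamonds are the limma mean with its 95% interval, circles and triangles the difference within each table. The interval excludes 0 for ISG15 with rapamycin and IRF9 with 2-PCPA, and neither passed the adjustment.

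The rest of the pathway was followed with lists of its genes. Interferon ligands were near absent: 8 of 9 stayed under 1 FPKM in every library, 5 were at 0 throughout, and IFNK, a keratinocyte interferon, was the exception at 1.05 FPKM in 2-PCPA replicate 1. All 9 ligands were at 0 in 7 of the 10 replicate 1 libraries, SAHA among them. The receptor chains and kinases were present, with all 9 tested. JAK1 was at 23.3 FPKM in DMSO replicate 1, 24.6 in SAHA and 33.6 in GSK-J4. None of the 9 passed 1 log2 in SAHA, GSK-J4, VPA, BRD4770 or UNC1215, and IL10RB, a receptor chain for interferon lambda, was lower by that much in BIX-01294.

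Among the transcription factors of the pathway, STAT2 was at 10.8 FPKM in DMSO replicate 1 and 15.7 in SAHA, and IRF3, which acts upstream of interferon production, at 22.3 and 39.5. Of 6 kept factors 0 passed 1 log2 in SAHA and 1 in GSK-J4, IRF1, which was at 3.65 FPKM in DMSO, 11.9 in GSK-J4, 7.25 in VPA and 6.77 in UNC1215. Among 10 kept sensors and adaptors, SAHA had 0 past the threshold. GSK-J4 had 2 higher, IKBKE and the DNA sensor IFI16. The latter was at 11.0 FPKM in DMSO, 24.3 in GSK-J4, 30.6 in BIX-01294 and 6.80 in SAHA. TREX1, at 2.37 FPKM in DMSO, was lower by 1 log2 in BIX-01294 (0.514), VPA (0.622) and 2-PCPA replicate 1 (0.609). It was higher by that much in rapamycin replicate 1 (5.83). The tables differ for this gene, with 14.9 FPKM in DMSO and 11.2 in 2-PCPA of replicate 2. Of 6 kept negative regulators 0 passed in SAHA or GSK-J4. In BIX-01294 the phosphatase gene PTPN2 was higher (24.4 to 51.4 FPKM) and SOCS3, an inhibitor of JAK kinases, lower (11.8 to 4.78 FPKM). Over all kept genes, 7.79% were higher and 3.83% lower by 1 log2 in SAHA. These shares were 8.92% and 5.96% in GSK-J4, 9.97% and 6.04% in BIX-01294, and 2.81% and 1.59% in VPA.

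Other interferon-stimulated genes did not share the higher levels of ISG15 and IFI6 in SAHA. Of 51 listed, 33 were kept in the replicate 1 table; 2 were higher and 6 lower by 1 log2 in SAHA, where 7.79% of all genes were higher and 3.83% lower. The median of the list was -0.49 against 0.05 for all genes. The higher ones were UBE2L6, the conjugating enzyme for ISG15 (14.4 FPKM in DMSO, 61.5 in SAHA), and IFI27, a relative of IFI6 (0 and 2.62). IFI27 passed the filter only through libraries where it was high (4.97 FPKM in BIX-01294, 2.62 in SAHA and 1.57 in BRD4770), so it adds no support. The lower ones were NMI (14.6 and 2.86), PARP9 (10.6 and 2.67), its partner DTX3L (13.3 and 5.40), PARP14 (10.3 and 3.58), GBP3 (2.34 and 0.219) and DDX60L (9.85 and 3.76). The most abundant genes of the list lay between: IFITM3, which blocks virus entry, was at 84.0 FPKM in DMSO and 61.3 in SAHA, and ADAR, an RNA-editing enzyme, at 44.5 and 26.9. The leukocyte markers summed to 3.31 FPKM in DMSO and to 10.7 in SAHA, the highest of the replicate 1 libraries (range 2.39 to 10.7), with CORO1A alone at 1.69 and 8.56 FPKM. LCP1 was at 1.29 and 1.61, and the pan-leukocyte gene PTPRC at 0.112 and 0; their part in the SAHA values was not tested. The genes of the list past the threshold were named after their values were seen.

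In GSK-J4 the same list had 4 of 33 higher and 2 lower, close to the shares of all genes (8.92% and 5.96%), with a median of 0.04 against 0.00. TRIM25, a ligase of the RIG-I pathway, was at 9.54 FPKM in DMSO and 56.3 in GSK-J4, the nuclear body protein SP100 at 13.8 and 36.3, GBP3 at 2.34 and 7.49, and the exonuclease ISG20 at 0 and 14.5. SAMHD1 and TRIM14 were lower. BRD4770 had 4 higher and 0 lower (5.94% and 4.84% of all genes), with ISG20 at 15.9 and TRIM25 at 23.5 FPKM, and BIX-01294 had 3 higher and 4 lower (9.97% and 6.04%), with a median of -0.08 against 0.06. The higher genes of both include IFI27 and ISG20, which passed the filter only through libraries where they were high. VPA and UNC1215 had 0 in either direction. In all 3 libraries where IFIT1 was lower by 1 log2 (GSK-J4, BIX-01294 and BRD4770), ISG20 and TRIM25 were higher. This was picked after the values were seen. ISG20 met the filter only through these 3 libraries, at 14.5, 3.57 and 15.9 FPKM, against at most 1.29 FPKM (2-PCPA) in the rest of replicate 1. Its higher level there is thus no support for a link with IFIT1. DMSO was the only replicate 1 library with ISG20 listed at 0, and ISG20 also passed 1 log2 in GSK343 replicate 1 (1.27 FPKM), where IFIT1 was above DMSO.

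**Figure D5:**
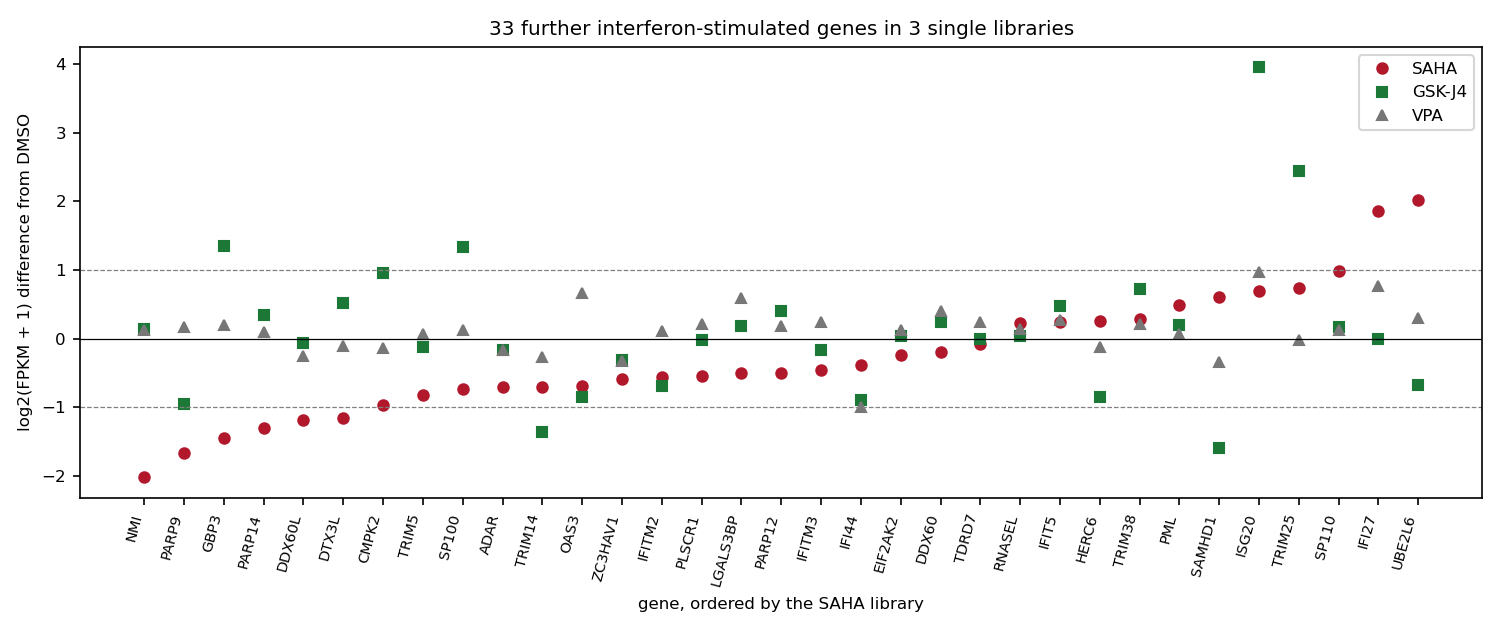
Difference from DMSO on the log2(FPKM + 1) scale (vertical axis) of the 33 kept genes of the list of other interferon-stimulated genes, ordered by the SAHA library, for SAHA, GSK-J4 and VPA (1 library each; dashed lines at 1 and -1). SAHA has 2 genes above and 6 below the lines, GSK-J4 4 above and 2 below, and VPA 0.

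The antigen presentation genes, which interferon gamma raises, had 9 of 17 kept and 0 past the threshold in SAHA or GSK-J4. In BRD4770, HLA-B was higher by more than 1 log2 (41.2 FPKM in DMSO, 90.0 in BRD4770). B2M was at 546.5 FPKM in DMSO and between 389.7 (2-PCPA) and 603.8 (BIX-01294) in the replicate 1 table. In the limma comparisons with DMSO, 0 genes of any list passed. At an unadjusted p under 0.05, 4 of 32 other interferon-stimulated genes passed with 2-PCPA (7.48% of all genes), 1 with GSK343 (4.22%) and 2 with rapamycin (6.46%). Their medians were -0.13, 0.03 and 0.06, against -0.20, 0.03 and -0.05 for all tested genes. For the sensors (10 tested) these counts were 0, 1 and 0, and for the negative regulators (6) 2, 0 and 0. For antigen presentation (16) they were 0, 0 and 1, and for leukocyte markers (2) 0, 0 and 1. They were 0 for the receptors (9), the transcription factors (6), the mesenchymal (8) and the epithelial markers (4). Among the libraries of the fit, 7 antigen presentation genes and 1 mesenchymal marker reached 1 FPKM in replicate 2 alone. For these genes and for IRF9 the low replicate 1 values, which may be failed estimates, still entered the fit. Their mean differences therefore do not rest on usable values from both tables.

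Across the 10 replicate 1 libraries, which share 1 DMSO library and 1 table, the members' levels were related in a way that depended on the SAHA library. The Pearson correlation of log2(FPKM + 1) was 0.75 for ISG15 and IFI6, 0.72 for ISG15 and IFIT1 and 0.85 for IFI6 and IFIT1. Without SAHA (9 libraries) these were 0.33, 0.55 and 0.83. TRIM22 had -0.50 with ISG15, -0.60 with IFI6 and -0.23 with IFIT1, and without SAHA 0.68, 0.63 and 0.80. IFIT3 had -0.40, -0.37 and -0.36 with ISG15, IFI6 and IFIT1 and 0.25 with TRIM22, and without SAHA -0.069, 0.05, -0.13 and -0.49.

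The mean of the 5 kept members was most like AX747706 (r = 0.96), COA5 (0.95), CDKN1B (0.94), NUDCD2 (0.94) and FXYD6 (0.94) over the 10 libraries. This mean averages genes that lay on opposite sides of DMSO in SAHA. Taken 1 member at a time, chosen once values had been seen, the most alike genes were FAM131C for ISG15 (r = 0.96), LEPRE1 for IFI6 (0.97), GIPC1 for IFIT1 (0.95), KIAA1932 for IFIT3 (0.88) and UFC1 for TRIM22 (0.98). UFC1, the conjugating enzyme of the ubiquitin-like protein UFM1, was at 48.4 FPKM in DMSO and 16.6 in SAHA.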

How the data were processed

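RNA of U2OS cells was measured in 14 libraries of 10 groups. The values are FPKM per gene symbol, as deposited by the authors; per the submitters' processing notes FastQC, cutadapt and TopHat2 were used with the hg19 build, versions not stated. The program that computed FPKM is not given in the sources used here. The tables had 28502 and 25209 rows, of which 1 unnamed row was left out. FPKM hold no counts, so absolute depth is unknown. Of values above 0 in the replicate 1 table, 56.9% had more than 6 significant digits, against 0.111% in the other.

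Values were taken as log2(FPKM + 1), which understates differences of low genes. The 8 libraries of the replicated groups entered 1 fit in limma 3.58.1 (R 4.3.3) over the 12603 genes whose mean reached 1 FPKM in them. The model had replicate number as a block and a variance trend on intensity (residual degrees of freedom 3, prior 5.42), and p-values were adjusted over all genes by Benjamini-Hochberg at 0.05. Same-numbered libraries share a table, and their deviations from group means correlated at 0.710 to 0.784 over 6 pairs. Single libraries were compared with DMSO of the replicate 1 table over the 12804 genes whose mean reached 1 FPKM there, at 1 log2, with no test. The SD of a 2-library difference came from the limma fit.

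The 9 members and 10 gene lists (147 genes) were chosen with earlier results of these data known. Named genes were the members, up to 4 most abundant genes of each list and any called gene; others are said to be chosen after their values were seen, as were the genes past 1 log2. Some of the genes the rule allows were left out for length, and a few are not reported here. The self-test on simulated data was run before the fit. Alternatives were other pseudocounts, filters, scalings, fits and each library left out; leaving out rows at 0 in 3 or more of 4 replicate 1 libraries was chosen after seeing the data.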

Additional observations from a re-analysis of the deposited data

How the results depend on the processing

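Members' differences from DMSO in the replicated comparisons had intervals that included 0, except ISG15 with rapamycin and IRF9 with 2-PCPA. ISG15 with rapamycin was -0.73 (SE 0.22) and IRF9 with 2-PCPA 0.81 (SE 0.31), and neither passed the adjustment. The IRF9 value rested on the replicate 1 table, where DMSO is listed at 0. The signs of several other differences were not stable. IFI6 with 2-PCPA was -0.05, and 0.15 with median centring, 0.20 with quantile normalization and 0.31 with TPM scaling; TRIM22 with rapamycin was 0.03, and -0.049 with TPM scaling. Of 225 member values under alternatives other than left-out libraries, 221 kept direction and call and these 4 changed sign. With libraries left out, 16 of 144 changed sign. The ranges were -0.28 to 0.19 (IFI6), -0.64 to 0.059 (IFIT1), -0.40 to 0.61 (IFIT3) and -0.86 to 0.058 (TRIM22) with 2-PCPA. With GSK343 they were -0.25 to 0.041 (ISG15), -0.14 to 0.74 (IFIT1), -0.13 to 0.30 (IRF9) and -0.36 to 0.30 (TRIM22). With rapamycin they were -0.026 to 0.27 (IFI6), -0.55 to 0.27 (IFIT3), -0.13 to 0.28 (IRF9) and -0.13 to 0.18 (TRIM22). ISG15 with rapamycin lay between -0.88 and -0.59. A group left with 1 library was assumed to vary like the others. The count of members called was 0 in each comparison and setting, except that leaving out libraries gave 0 to 1 for 2-PCPA against GSK343 (IRF9, without 2-PCPA replicate 2, where 1844 of 12603 genes passed). Without the replicate block 0 members were called, and 1, 0 and 0 genes in place of 3, 2 and 2 for 2-PCPA, GSK343 and rapamycin against DMSO.

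Counts over all genes moved far more: against DMSO, over all settings, 0 to 272 genes were called with 2-PCPA, 0 to 50 with GSK343 and 0 to 68 with rapamycin. Leaving out 363 small RNA and clone rows raised the prior degrees of freedom from 5.42 to 24.9 and gave 38, 46 and 66 called genes, of which 0 were members. In the single libraries, 2 members passed 1 log2 for BIX-01294 with a pseudocount of 0.1 and with TPM scaling (IFIT1 and IFIT3), in place of 1. With a pseudocount of 5 there were 0 for BIX-01294, 0 for BRD4770 in place of 1 and 0 for GSK-J4 in place of 2; adding 5 shrinks differences of genes this low. TPM scaling gave 3 for GSK-J4 (ISG15 at -1.02 joined). In SAHA it gave 0.98 for ISG15 and -1.13 for IFIT3; a pseudocount of 0.1 gave -1.49 for IFIT3 and 5 members past 1 log2 in place of 4, and a pseudocount of 5 gave 3.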
